A study of Homo sapiens with 96 samples.

Results

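Scramble siRNA transfection was set against cells labelled with phosphate-buffered saline (PBS) and no siRNA in HaCaT keratinocytes. The members were the arrays labelled with scramble siRNA and no drug or PBS (12 arrays) and the arrays labelled as PBS control without siRNA (11 arrays), which made 23 of the 96 arrays in the series. HaCaT is a spontaneously immortalized human keratinocyte line, and 4 derivatives of it were used. HaCaT-Mock is the control line of the set, and HaCaT-EGFR, HaCaT-HRAS and HaCaT-PIK3CA carry EGFR, a mutant HRAS or a mutant PIK3CA on a lentiviral vector with the CMV promoter. The transduced cells were selected with puromycin, and no cloning step is described. Each line had 3 scramble arrays. HaCaT-Mock, HaCaT-HRAS and HaCaT-PIK3CA had 3 PBS arrays each and HaCaT-EGFR had 2. Total RNA was read on Affymetrix U133 Plus 2.0 chips, on which a gene is read by 1 or more probe sets, and all values below are log2 signals, so that a difference of 1 is a 2-fold change.

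Further HaCaT arrays were used for comparison. They carried scramble siRNA with PBS (7 arrays), scramble siRNA with an EGFR inhibitor (12 arrays), an inhibitor without siRNA (35 arrays) or siEGFR, an siRNA against EGFR (12 arrays). The inhibitors were the antibody cetuximab at 100 nM and the kinase inhibitors gefitinib at 100 nM and afatinib at 10 nM. In the methods, EGFR siRNA was delivered with a Lipofectamine reagent, and silencing was assayed on the following days. The sequence of the scramble siRNA, the time of each array after transfection and whether PBS cells received the lipid reagent are not given in the sources used here. Lipid, siRNA and the handling of transfected cultures therefore cannot be told apart where scramble arrays are set against arrays without siRNA. The labels do not say whether replicates were separate cultures, so the spread behind each p-value may be technical only. Each array carries a batch letter in its label (J, E or M). Every line had 2 scramble arrays in batch J and 1 in batch M. The third PBS array was in batch E in HaCaT-Mock and in batch M in HaCaT-HRAS and HaCaT-PIK3CA. The labels name 2 labelling kits without tying them to arrays.

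A scramble siRNA has no intended target in the human transcriptome and serves as the control for siRNA experiments. It reaches the cytoplasm in a cationic lipid complex, is loaded by Argonaute proteins and can repress transcripts that match its seed, while double-stranded RNA can also be read by sensors such as PKR, RIG-I and MDA5, which feed the interferon response. Amino acid shortage, unfolded protein in the endoplasmic reticulum or PKR can each activate the integrated stress response, in which the transcription factor ATF4 induces genes of amino acid synthesis and transport.

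**Figure D1:**
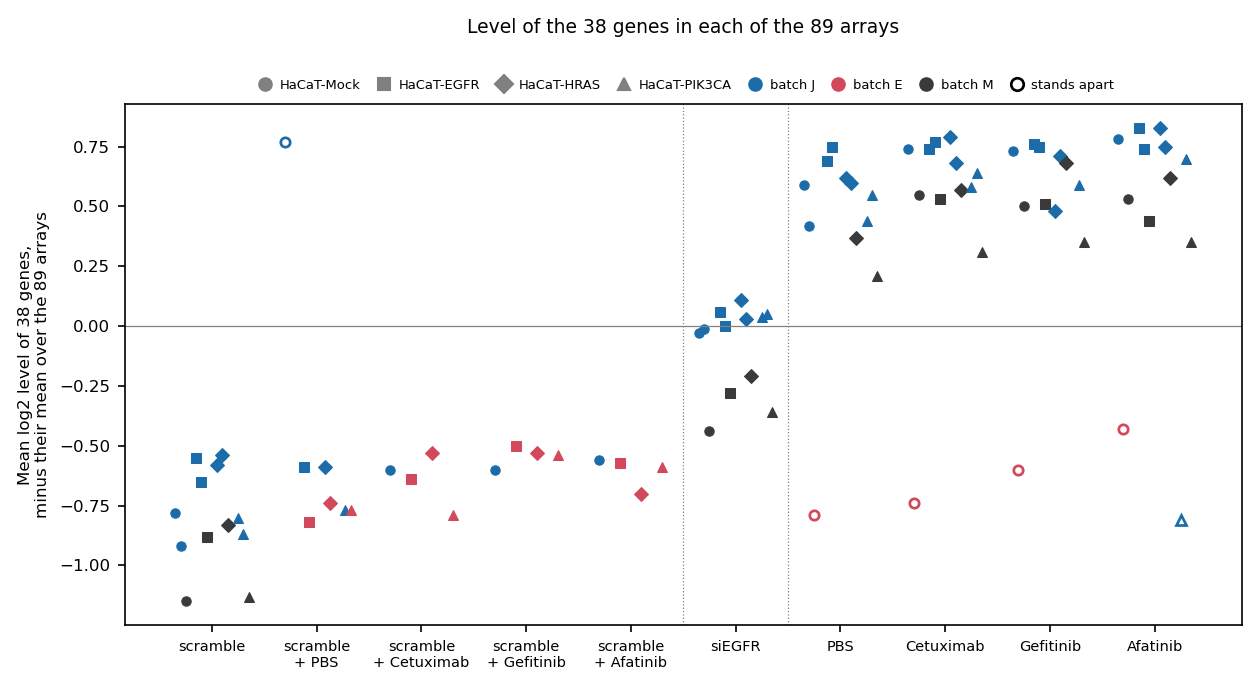
The vertical axis gives the mean log2 level of the 38 genes that were lower by at least 1 after scramble siRNA, minus their mean over the 89 HaCaT arrays, with 1 point for each array. Shape marks the line and colour the batch. The 12 scramble arrays sit between -1.15 and -0.54 and 10 of the 11 PBS arrays between 0.21 and 0.75. The genes were chosen on these same arrays, so the gap between both groups was in part set by that choice. Open symbols are the 6 arrays that stood apart from others of their label.

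Some arrays stood apart from others of their label. Over the 38 genes that were lower by at least 1 after scramble siRNA, given below, 30 arrays with scramble siRNA in their label lay between -1.15 and -0.5 relative to the mean of all 89 HaCaT arrays, and 41 arrays without siRNA lay between 0.21 and 0.83. The 12 siEGFR arrays lay between those ranges, at -0.44 to 0.11. The third HaCaT-Mock PBS array, in batch E, lay at -0.79, and 36 of the 38 genes were lower in it than in all 8 other HaCaT-Mock arrays without siRNA. The HaCaT-Mock arrays labelled cetuximab and gefitinib in batch E (-0.74 and -0.6) and 1 HaCaT-PIK3CA array labelled afatinib, in batch J (-0.81), also lay in the range of the scramble arrays. The HaCaT-Mock array labelled afatinib in batch E lay at -0.43, between that range and the arrays without siRNA, and 20 of the 38 genes were higher in it than in all scramble arrays of the line counted among the 30. The HaCaT-Mock array labelled scramble siRNA with PBS, in batch J, lay at 0.77. These 4 HaCaT-Mock arrays of batch E were the only arrays without siRNA in that batch. All 16 arrays of batch E lay between -0.82 and -0.43. Scramble siRNA with PBS was read in batches J and E in HaCaT-EGFR, HaCaT-HRAS and HaCaT-PIK3CA. In that order these arrays lay at -0.59, -0.59 and -0.77 in batch J and at -0.82, -0.74 and -0.77 in batch E. How much of the low level of the 4 HaCaT-Mock arrays goes with batch was not tested. Within batch J the 8 scramble arrays lay between -0.92 and -0.54 and the 8 PBS arrays between 0.42 and 0.75, and within batch M the 4 scramble arrays lay between -1.15 and -0.83 and the 2 PBS arrays at 0.21 and 0.37. The 38 genes were chosen for a fall between these scramble and PBS arrays, so a gap between both groups was in part set by that choice. DUSP6 and EGR1, of the MAPK output list below, were also read. The HaCaT-PIK3CA array at -0.81 read 9.57 and 8.69. The other afatinib arrays of that line spanned 7.73 to 8.16 and 8.04 to 8.4. Its scramble arrays spanned 9.68 to 9.97 and 8.41 to 8.88. The HaCaT-Mock array at 0.77 read 8.13 and 8.55, against 10.16 to 10.18 and 10.32 to 10.48 in PBS arrays 1 and 2. The HaCaT-Mock inhibitor arrays outside batch E spanned 6.64 to 7.84 and 6.67 to 8.31 without siRNA. With scramble siRNA they spanned 5.9 to 6.59 and 6.38 to 7.39. In batch E the HaCaT-Mock arrays read 6.49 and 7.51 (afatinib), 6.27 and 6.21 (cetuximab), 5.95 and 6.52 (gefitinib) and 9.49 and 8.83 (PBS). Whether the drug labels of these arrays hold was not tested. All arrays were kept under their labels in the main values. Only the third HaCaT-Mock PBS array is compared in scramble against PBS, but all 6 enter the shared estimates of spread and batch. The main results that rest on them are given with and without them. Gene list counts are with all arrays unless stated, and some differed without the 6, as in the interferon-stimulated genes (9 falls in place of 7). The 6 arrays were picked after seeing the values, by genes chosen on 1 of them among others, so values without them are a description.

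The cells carried the markers of their type. The 8 measured keratinocyte markers, among them KRT5, KRT14, DSG3 and SFN, averaged 10.55 to 11.21 in scramble arrays and 10.68 to 11.12 in PBS arrays, and all 8 lay above 6.102, the median of all genes. The 16 markers of fibroblasts, endothelium, leukocytes, erythroid cells and melanocytes averaged 4.9 to 5.12 in scramble arrays and 4.96 to 5.18 in PBS arrays. The difference between the 3' and 5' probe sets of ACTB, a sign of RNA quality, spanned 0.4 to 1.49 in scramble arrays and 0.39 to 1.57 in PBS arrays. EGFR averaged 10.98 ± 0.05 (SD, n = 2) in HaCaT-EGFR and 10.80 ± 0.33 (SD, n = 3) in HaCaT-Mock under PBS, and HRAS 8.48 ± 0.22 in HaCaT-HRAS and 8.68 ± 0.14 in HaCaT-Mock (SD, n = 3 each), so neither gene stood higher in its construct line beyond the spread. The HaCaT-Mock values include the PBS array that stood apart. Whether these probe sets lie within the constructs was not tested. The paper reports by RT-PCR that both mRNAs were raised in their construct lines over HaCaT-Mock.

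Scramble siRNA changed many genes by a little and few by much, and the larger changes were mostly falls. Averaged over the 4 lines with batch as a covariate, 2692 genes were higher and 2668 lower after scramble siRNA among 19775 tested (13.6% and 13.5% of genes, limma, Benjamini-Hochberg adjusted p under 0.05). At a change of at least 0.5 the counts were 47 higher and 333 lower, so that 87.6% of the larger changes were falls, and at a change of at least 1 they were 2 and 38. The median change of all genes was 0.018. Without the 6 arrays 2875 genes were higher and 2746 lower (14.5% and 13.9%), and again 2 and 38 genes changed by at least 1. In batch J alone 2801 were higher and 2701 lower. In bulk RNA a lower signal can mean less RNA per cell or fewer cells with the transcript, and these cannot be told apart.

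The gene that fell most was ASNS (asparagine synthetase, chromosome 7), which makes asparagine from aspartate and glutamine. ASNS read 7.82, 7.79 and 7.59 in HaCaT-Mock scramble arrays against 10.33, 10.1 and 8.35 in the PBS arrays of that line. It read 8.09, 8.1 and 8.05 in HaCaT-EGFR scramble arrays against 10.5 and 10.75 in PBS arrays. In HaCaT-HRAS it read 8.62, 8.55 and 8.39 after scramble siRNA against 10.46, 10.42 and 10.42 in PBS arrays. Within every line the scramble arrays lay below the PBS arrays, and the HaCaT-Mock PBS array at 8.35 is the one that stood apart. In HaCaT-PIK3CA the values were 8.13, 8.2 and 8.01 after scramble siRNA against 10.11, 10.42 and 10.46 in PBS arrays. The mean change was -2.25 ± 0.17 (SE, limma adjusted p = 4.9e-15) and -2.29 ± 0.05 without the 6 arrays. Within batch J alone the change of ASNS was -2.41 in the Mock line and -2.53 in the EGFR line. In HaCaT-HRAS it was -1.85 within batch J and -2.03 within batch M, and in HaCaT-PIK3CA -2.1 within batch J and -2.44 within batch M.

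ITGB8, the integrin subunit whose heterodimer activates latent TGF-beta, had a change of -1.91 ± 0.14 (SE, limma adjusted p = 4.5e-15). It spanned 7.16 to 8.68 with a median of 8.06 in the 12 scramble arrays, against 8.09 to 10.55 with a median of 10.04 in the 11 PBS arrays. The groups overlapped only through the third HaCaT-Mock PBS array, and the other 10 PBS arrays began at 9.39. EIF5A2, an isoform of the translation factor eIF5A, spanned 5.07 to 6.16 (median 5.7) in scramble arrays against 5.69 to 7.73 (median 7.37) in PBS arrays, of which the other 10 began at 6.52. Its change was -1.55 ± 0.11 (SE, limma adjusted p = 1.4e-15) and nearly the same in the 4 lines, between -1.46 in HaCaT-Mock and -1.62 in HaCaT-PIK3CA.

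**Figure D2:**
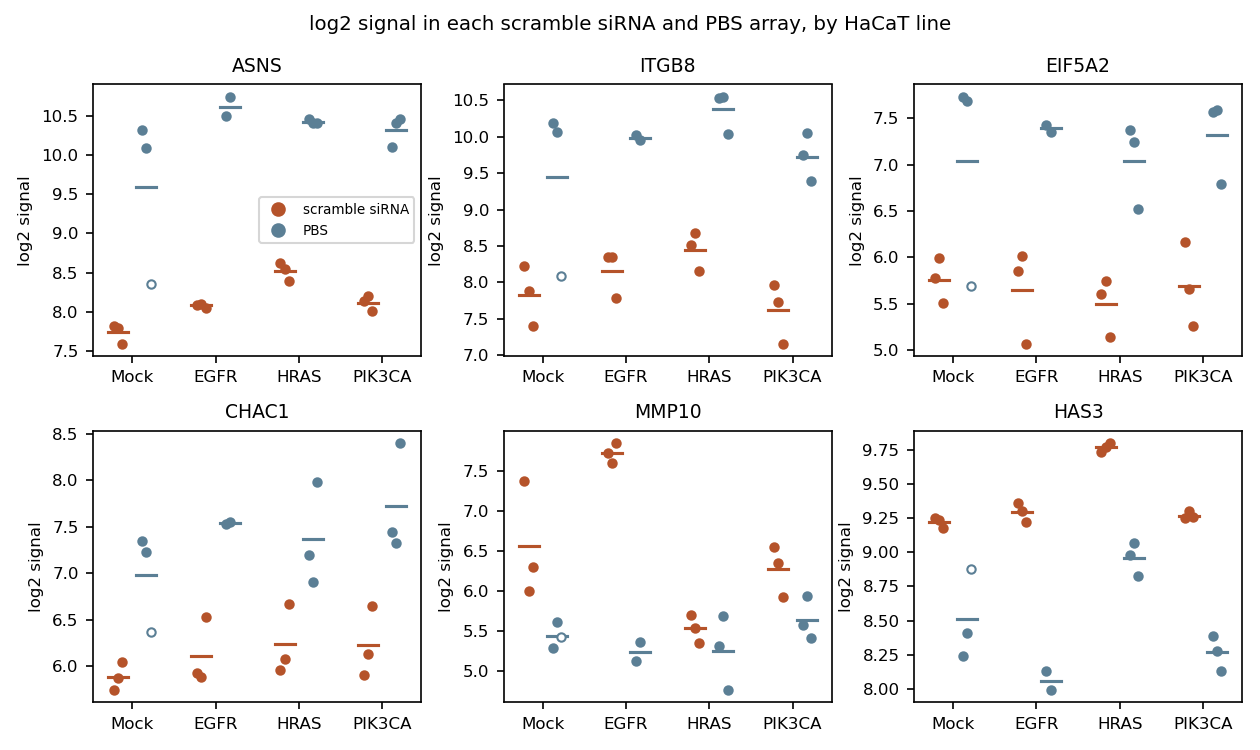
The vertical axes give the log2 signal of 6 genes in each scramble siRNA array and each PBS array, by HaCaT line, with bars at the group means and an open symbol for the third HaCaT-Mock PBS array. ASNS and CHAC1 were lower, and HAS3 higher, in all scramble arrays than in all PBS arrays of the same line, while MMP10 in HaCaT-HRAS and HaCaT-PIK3CA overlapped.

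The next 9 falls by size, among genes of at least median level that moved the same way in every line, held 3 genes of the ATF4 list given below, CHAC1 (-1.48), ATF3 (-1.38) and SLC7A11 (-1.35), and 6 others. Of these, NCOA7, an oxidation resistance protein of the nuclear receptor coactivator family, fell by 1.49, MIGA1, a regulator of mitochondrial fusion, by 1.46 and KLHL2, a substrate adaptor of the cullin 3 ubiquitin ligase, by 1.45. PAWR, a pro-apoptotic protein, fell by 1.45, CARNMT1, which methylates carnosine, by 1.39 and UQCC6, an assembly factor of respiratory complex III, by 1.32. In those 6 genes the 12 scramble arrays lay below 10 of the 11 PBS arrays. They were named for large falls between these same arrays, so this separation was in part set by that choice. The share of all genes that separate in this way was not counted. PAWR, for example, spanned 8.58 to 9.54 after scramble siRNA and 8.95 to 10.88 in PBS arrays, with the array that stood apart at the bottom and the other 10 from 10.25 upward.

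Genes of the ATF4 program fell together. ATF4 and its targets made up a list of 17 measured genes, of which 16 fell and none rose, beside 13.5% of all genes that fell, and their median change was -0.72 beside 0.018 for all genes. ATF4 itself fell by 0.53 (SE 0.04, limma adjusted p = 1.3e-15). It spanned 11.36 to 11.66 with a median of 11.49 in scramble arrays and 11.62 to 12.16 with a median of 12.07 in PBS arrays. Without the array that stood apart the PBS values began at 11.87, above every scramble array. Left out of the fit, the 6 arrays changed neither the count of 16 nor, by more than 0.01, the median (-0.71).

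The falls covered amino acid synthesis, uptake and the regulators downstream of ATF4. Besides ASNS, the serine synthesis enzymes PSAT1 (-1.23) and PHGDH (-0.8) fell. So did SLC7A11, the cystine importer of system xc- (-1.35), and to a lesser degree SLC3A2 (-0.32) and SLC7A5 (-0.28), the heavy and light chains of the leucine transporter. CHAC1, which degrades glutathione, fell by 1.48 (SE 0.11, limma adjusted p = 4.9e-15). It spanned 5.74 to 6.67 with a median of 6.0 in scramble arrays against 6.37 to 8.4 with a median of 7.35 in PBS arrays. Within each line the scramble arrays lay below the PBS arrays, also where the array that stood apart is counted.

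Among the transcription factors and stress regulators of the list, ATF3 fell by 1.38, DDIT3 (CHOP) by 0.74 and CEBPB by 0.55. DDIT4 (REDD1) and SESN2, inhibitors of mTORC1, fell by 1.24 and 0.65. TRIB3, a pseudokinase that restrains ATF4, fell by 0.64, the secreted glycoprotein STC2 by 0.72 and the lipoprotein receptor VLDLR by 0.26. NUPR1 had a change of 0.02 and did not pass the test. By line, 15 of the 17 genes fell in HaCaT-Mock (5.09% of all genes fell there), 15 fell in HaCaT-EGFR (3.35%), 12 fell in HaCaT-HRAS (5.66%) and 15 fell in HaCaT-PIK3CA (3.97%), and none rose. CTH, the last enzyme of cysteine synthesis, and PCK2, the mitochondrial PEP carboxykinase, which are not on the list, were also among the 38 genes that fell by at least 1 (-1.16 and -1.05).

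**Figure D3:**
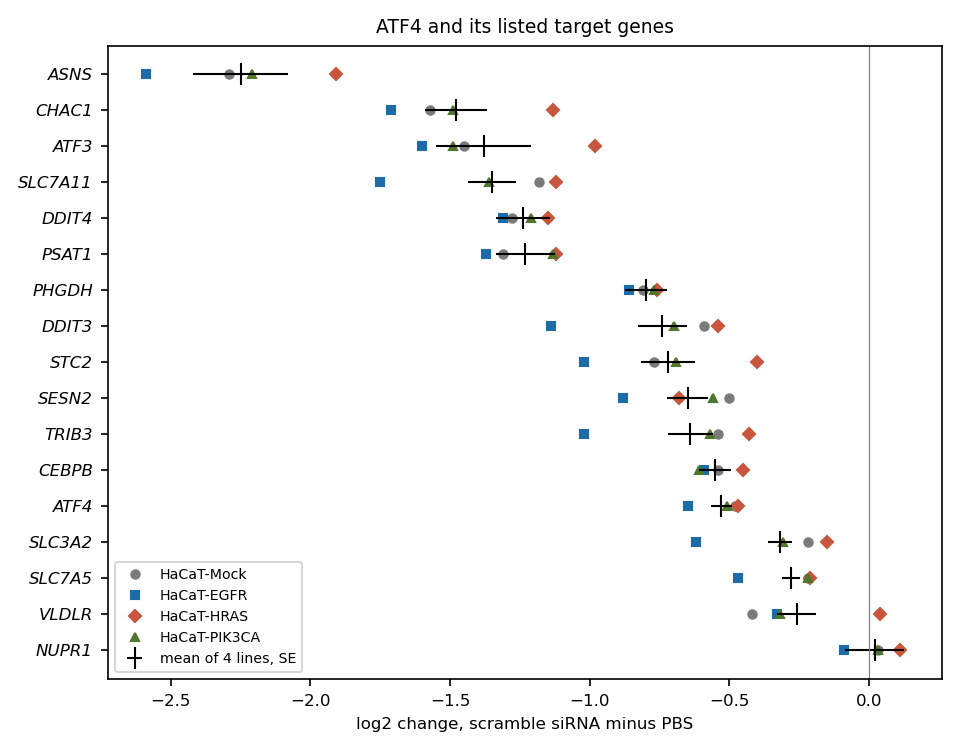
The horizontal axis gives the log2 change, scramble siRNA minus PBS, of ATF4 and its listed targets in each of the 4 lines (symbols) and as the mean of the lines with its SE (cross and bar). Of the 17 genes, 16 lie left of 0 and passed the test, from -2.25 for ASNS to -0.26 for VLDLR, and NUPR1 lies at 0.02.

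ATF4 binds a composite element with C/EBP partners, whose core reads TGATGNAA. The window from 250 bases before to 50 bases after the transcription start (RefSeq, GRCh38.p14) held these letters on either strand in 4 of the 15 listed genes that had a window, against 3.61% of the 15384 tested genes that had one. A gene can have several windows and was counted where any of them held a match. The stretches around the match are shown for the 3 genes that fell by more than 1. They are written 5′ to 3′ in the direction of the gene, with the matched letters in capitals. In CHAC1 the match is on the opposite strand. A match is a description of these letters and not evidence of binding.
ASNS promoter, chr7:97872443-97872502, minus strand, match 68 bases before the start: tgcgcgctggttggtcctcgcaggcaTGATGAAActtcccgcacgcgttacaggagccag
ATF3 promoter, chr1:212565190-212565249, plus strand, match 191 bases before the start: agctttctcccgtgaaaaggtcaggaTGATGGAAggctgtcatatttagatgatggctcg
CHAC1 promoter, chr15:40953236-40953295, plus strand, match 209 bases before the start: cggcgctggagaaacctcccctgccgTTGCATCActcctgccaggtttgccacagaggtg

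CDH1 was the cell junction gene that fell most. It encodes E-cadherin, the core of epithelial adherens junctions. Its signal spanned 9.97 to 10.61 (median 10.31) in scramble arrays against 9.83 to 11.65 (median 11.4) in PBS arrays. The lowest PBS value belonged to the array that stood apart, and the other 10 lay at 11.27 or above, clear of all scramble arrays. The change was -1.07 ± 0.12 (SE, limma adjusted p = 5.3e-10), between -0.94 in HaCaT-EGFR and -1.25 in HaCaT-PIK3CA. Of 16 cell junction genes 9 fell and 3 rose, beside 13.5% and 13.6% of all genes, with a median of -0.18. The desmosomal cadherins DSC3 (-0.5) and DSG3 (-0.43) and the tight junction protein CLDN1 (-0.46) fell, while the desmosomal cadherin DSC2 rose (0.42). DSC3 and DSG3 are also on the keratinocyte marker list, of which 5 of 8 genes fell, among them LAMB3 (-0.39) and KRT14 (-0.23), and S100A2 rose (0.12).

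Most of the early response genes and YAP targets that were called fell. Of 12 immediate early genes 7 fell, none rose and 5 did not pass (median -0.21), beside 13.5% of all genes that fell and 13.6% that rose. Among the 7 were ATF3, which is also on the ATF4 list, EGR3 (-0.58), KLF4 (-0.32) and JUNB (-0.26). FOS had a change of -0.23 that did not pass. EGR1, a growth factor-induced zinc finger factor, spanned 8.41 to 9.61 in scramble arrays (median 9.11) and 8.83 to 10.57 in PBS arrays (median 10.24), a change of -1.03 (SE 0.08, limma adjusted p = 3.7e-14). Within each line but HaCaT-Mock, where 1 PBS array lay at 8.83, the scramble arrays lay below the PBS arrays. EGR1 is also on the list of MAPK output genes. Of 17 on that list 4 rose and 2 fell, DUSP5 (0.43), FOSL1 (0.42) and DUSP4 (0.35) rose, and DUSP6 had a change of -0.12 that did not pass. Of 11 YAP targets 7 fell and 1 rose (median -0.31). The matricellular proteins CCN1 (-0.62) and CCN2 (-0.34) and the angiomotin family member AMOTL2 (-0.57) fell, and LATS2, a kinase that restrains YAP, rose (0.18).

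No interferon-stimulated gene passed the test as higher in scramble siRNA against PBS. None of 28 rose, beside 13.6% of all genes, and 7 fell, beside 13.5%, with a median of -0.05. DDX60, an RNA helicase, fell by 0.54, IFIT2 by 0.47 and OASL by 0.35, whereas RSAD2 and CXCL10, 2 strongly interferon-inducible genes, had changes of -0.01 and 0.12 that did not pass. Among 15 sensors of double-stranded RNA and their adaptors, EIF2AK2 (PKR) fell by 0.43 and MAVS by 0.21, while RIGI rose by 0.14, TICAM1 by 0.19 and IRF3 by 0.18. EIF2AK2 spanned 8.64 to 9.11 in scramble arrays (median 8.94) and 9.1 to 9.6 in PBS arrays (median 9.27). Its groups touched only at their edges. Interferon beta (IFNB1) had a change of 0.05 that did not pass, and 1 of 11 genes of interferons and their receptors was called, IFNGR2 (0.09). Of 13 antigen presentation genes 5 fell, including HLA-C (-0.3) and HLA-B (-0.28), and none rose. Without the 6 arrays 7 of these 13 fell and 1 rose. Of 18 NF-kB inflammatory genes 4 fell, among them TNFAIP3 (A20, -0.7) and IL1A (-0.38), and NFKB1 rose (0.2). In scramble siRNA with PBS against PBS the interferon-stimulated genes depended on the 6 arrays. With all arrays 6 of the 28 rose and none fell (median 0.15), beside 2.16% and 3.76% of all genes. Without the 6 arrays none rose and 7 fell (median -0.06), beside 8.85% and 7.59%.

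Genes of the RNA interference pathway were among those that rose in scramble siRNA against PBS. Of 12 measured, 6 rose and 2 fell, beside 13.6% and 13.5% of all genes, with a median of 0.13. TNRC6A (GW182), the Argonaute partner that recruits deadenylases, rose by 0.68 (SE 0.07, limma adjusted p = 8.2e-11). It spanned 8.78 to 9.6 in scramble arrays (median 9.41) and 8.15 to 9.45 in PBS arrays (median 8.81), and 10 PBS arrays ended at 8.82, while the array that stood apart held the 9.45. AGO2, the Argonaute that cleaves its target, rose by 0.42, the nuclease DICER1 by 0.37 and the exporter XPO5 by 0.24. AGO4, which lacks cleavage activity, fell by 0.54. In siEGFR against PBS 3 of the 12 rose and 2 fell (median 0.01), beside 11.2% and 10.8% of all genes. In scramble siRNA with PBS against PBS 1 rose and none fell in all arrays (median 0.02), beside 2.16% and 3.76%. Without the 6 arrays that stood apart 6 rose and 1 fell there (median 0.17), beside 8.85% and 7.59%.

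The largest rises were in the matrix protease MMP10 and in HAS3, with ND6 between them. HAS3, a hyaluronan synthase, spanned 9.18 to 9.8 with a median of 9.28 in scramble arrays and 7.99 to 9.07 with a median of 8.39 in PBS arrays. The groups did not overlap, with the third HaCaT-Mock PBS array included. The change was 0.97 ± 0.10 (SE, limma adjusted p = 1.3e-11). ND6, a subunit of respiratory complex I encoded on the light strand of the mitochondrial genome, rose by 1.15 (SE 0.15, limma adjusted p = 7.6e-09), with 9.05 to 10.45 in scramble arrays (median 10.01) and 8.26 to 9.63 in PBS arrays (median 8.81). The scramble arrays lay above the PBS arrays within each line but not across lines. In HaCaT-HRAS the ND6 change of 0.56 did not pass (limma adjusted p = 0.24).

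The other rises named by size were between 0.59 and 0.7. They were NRAV, a long noncoding RNA (0.7), CHD7, a chromatin remodeller (0.69), the interleukin-6 receptor IL6R (0.68), NETO2, a transmembrane protein known as a kainate receptor subunit (0.65), the mitochondrial cyclophilin PPIF (0.64), the nucleotidase ENTPD7 (0.64), the cell cycle phosphatase CDC25A (0.62) and the prostaglandin E synthase PTGES (0.59). NRAV, CHD7, PPIF and CDC25A were called in every line. IL6R missed the threshold in HaCaT-HRAS, PTGES in HaCaT-Mock, NETO2 in both of these and ENTPD7 in HaCaT-Mock and HaCaT-EGFR.

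Growth-related groups moved by small amounts. The counts here compare with 13.6% of all genes that rose and 13.5% that fell. Of 20 genes of the G2 and M phases 10 rose and 1 fell, with a median of 0.13. The mitotic kinase PLK1 rose by 0.37 and the anaphase activator CDC20 by 0.34, and the spindle motor KIF11 fell by 0.4. Of 18 S phase genes 1 rose and 5 fell. Of 12 ribosome biogenesis genes 8 rose, led by NOP16 (0.35) and POLR1B (0.31), and MYC (-0.28) and NOLC1 (-0.21) fell. Of 9 heat shock genes 5 rose, led by the collagen chaperone SERPINH1 (0.33).

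Lipid and stress groups were mixed. Over all genes 13.6% rose and 13.5% fell. Of 17 sterol synthesis genes 7 fell and 1 rose, with a median of -0.07. INSIG1, which retains the SREBP activator in the endoplasmic reticulum, fell by 0.62, and the pathway enzymes HMGCS1 and SQLE by 0.42 each. The unfolded protein response list had 4 rises and 4 falls of 12 genes. Its HERPUD1 (-0.68) and XBP1 (-0.45) fell and SDF2L1 (0.32) rose. Of 17 hypoxia and glycolysis genes 6 rose and 4 fell, with HK2 (0.39) and PFKFB3 (0.37) up and VEGFA (-0.45) down. TSC22D3 (GILZ), a glucocorticoid-induced leucine zipper protein, fell by 1.19, and 2 of the 8 other genes of its list, SGK1 (-0.34) and DUSP1 (-0.28), also fell. The keratinocyte differentiation lists had 3 rises and no fall of 15 suprabasal genes, 3 rises and 3 falls of 13 cornified envelope genes and 3 falls and no rise of 11 basal genes. The p53 targets (4 rises and 4 falls of 13), the lysosome and autophagy genes (4 and 4 of 18) and the TGF-beta targets (3 and 3 of 14) were evenly split. The EGFR ligand EREG fell by 0.8 and the ERBB3 ligand NRG1 by 0.45, and the other 6 ERBB ligands were not called. EGFR itself fell by 0.24 (SE 0.05, limma adjusted p = 1.5e-04), and HRAS had a change of 0.11 (adjusted p = 0.1).

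The scramble effect was also read in arrays that the comparison does not use. Arrays with scramble siRNA and an inhibitor were set against arrays with the same inhibitor alone, averaged over 3 inhibitors and 4 lines. In all 89 arrays 367 genes were higher and 719 lower (1.86% and 3.64%), and without the 6 arrays 2132 were higher and 1771 lower (10.8% and 8.96%). Of the 38 genes that fell by at least 1 after scramble siRNA alone, 32 fell here with a median of -0.54, and without the 6 arrays all 38 fell with a median of -1.16. The 6 arrays were picked by these same 38 genes, so the larger fall without them was in part set by that choice. Of the 47 genes that rose by at least 0.5, 19 rose here, and 40 without the 6 arrays. The scramble with inhibitor arrays outside HaCaT-Mock were all in batch E, and the batch E term draws on arrays that stood apart. Without the 6 arrays, no array without siRNA was left in batch E. The term then rests on the scramble with PBS arrays of HaCaT-EGFR, HaCaT-HRAS and HaCaT-PIK3CA. Within batch J, HaCaT-Mock offered 1 scramble with inhibitor array and 1 inhibitor array for each of the 3 drugs. All 38 genes were lower in all 3 pairs, with a median of -1.22, beside 4881 of all 19775 genes. Of the 17 genes on the ATF4 list 8 were lower and none higher in all 89 arrays (median -0.3), and 15 were lower and none higher without the 6 arrays (median -0.79).

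**Figure D4:**
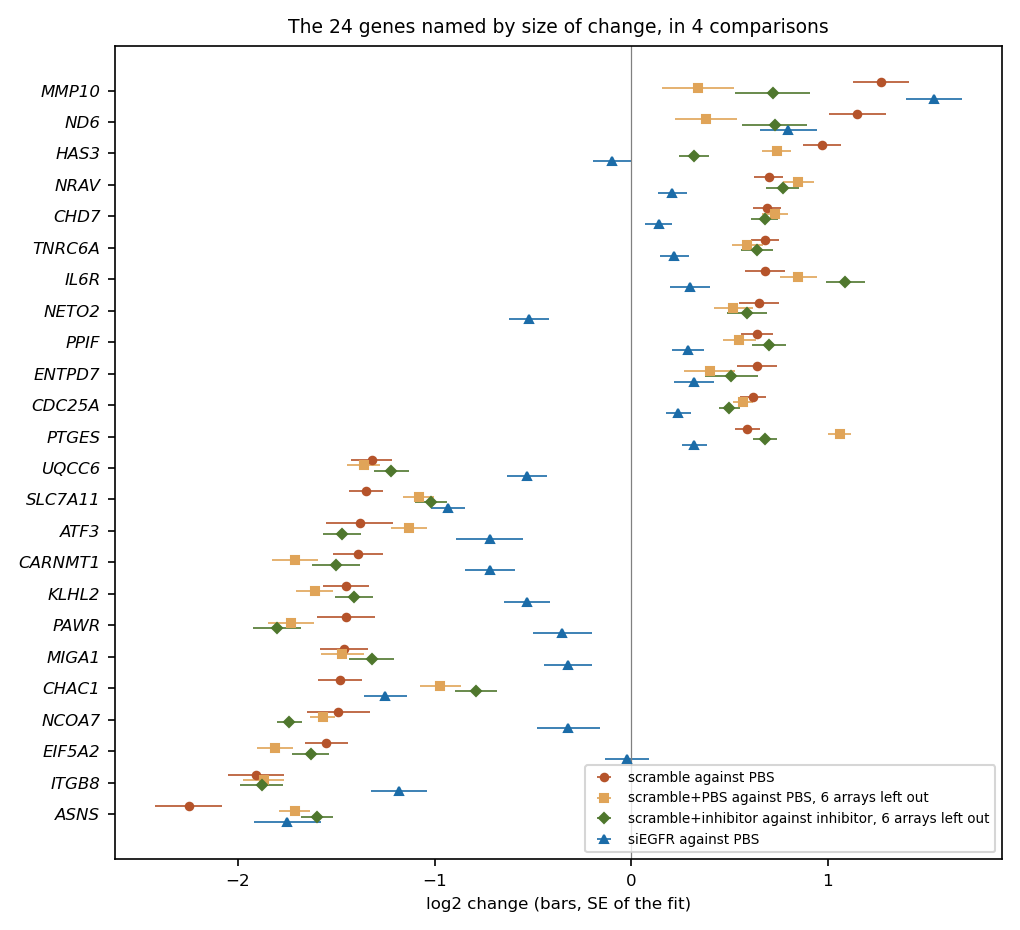
The horizontal axis gives the log2 change, with its SE from the fit, of the 12 genes with the largest rises and the 12 with the largest falls, for scramble siRNA against PBS, scramble with PBS against PBS, scramble with inhibitor against inhibitor (both without the 6 arrays that stood apart) and siEGFR against PBS. EIF5A2 lies at -1.55 for scramble siRNA and at -0.02 for siEGFR, and HAS3 at 0.97 and -0.1.

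Scramble siRNA with PBS against PBS, which shares its PBS arrays with the main comparison, gave 427 genes higher and 743 lower (2.16% and 3.76%). In all arrays EIF5A2 changed by -1.2 and CDH1 by -0.49, ASNS had a change of -0.61 that did not pass (limma adjusted p = 0.071), and 3 of the 17 genes on the ATF4 list fell (median -0.2). Without the 6 arrays, which left no such array in HaCaT-Mock, it gave 1750 higher and 1500 lower (8.85% and 7.59%), ASNS changed by -1.71, EIF5A2 by -1.81 and CDH1 by -1.32, and 15 of the 17 ATF4 list genes fell (median -0.6). Scramble siRNA alone against scramble siRNA with PBS depended on the HaCaT-Mock array labelled scramble siRNA with PBS, which stood apart. In all arrays 1986 genes were higher and 1899 lower (10% and 9.6%), and without the 6 arrays 201 were higher and 283 lower (1.02% and 1.43%) with none at a change of 1. On the ATF4 list 15 of 17 genes were lower in all arrays (median -0.49) and 5 without the 6 arrays (median -0.15). Among the genes called without the 6 arrays, ASNS (-0.51, limma adjusted p = 8.5e-05), CHAC1 (-0.47), PHGDH (-0.34) and SLC7A11 (-0.32) were lower after scramble siRNA alone, and MMP10 (0.83), the cornified envelope gene SPRR1B (0.63) and CCN1 (0.45) were higher. These arrays differed in batch as well, J and M after scramble siRNA alone and J and E with PBS.

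siEGFR was another siRNA delivered to the same lines. It lowered EGFR, which spanned 7.95 to 9.1 in siEGFR arrays, against 9.93 to 10.95 in scramble arrays and 10.18 to 11.02 in PBS arrays. Its comparison with PBS shares the PBS arrays, and gave 2212 genes higher and 2141 lower (11.2% and 10.8%). Of the 38 genes that fell by at least 1 after scramble siRNA, 22 fell after siEGFR and 16 were not called, with a median of -0.43. Set directly against siEGFR, which shares the scramble arrays, scramble siRNA left 2791 genes higher and 2816 lower (14.1% and 14.2%), and 31 of the 38 genes were lower after scramble siRNA. The 38 genes were chosen for low values in these scramble arrays, so this count was in part set by that choice.

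Several of the 38 genes were near 0 after siEGFR. EIF5A2, CDH1, the microtubule minus-end protein CAMSAP2 and the pyruvate dehydrogenase component PDHX changed by -0.02, 0.05, -0.02 and 0.04 after siEGFR against PBS, and none passed. Scramble siRNA minus siEGFR was -1.52 in EIF5A2, -1.12 in CDH1, -1.05 in CAMSAP2 and -1.09 in PDHX, and all 4 differences passed. These genes were chosen for a fall after scramble siRNA and a change near 0 after siEGFR. The size and the calls of these differences were therefore set by that choice and are only a description. The adhesion scaffold NEDD9 (0.09), LRRC58 (0.05), HECA (-0.08) and the cochaperone SGTB (-0.03) were likewise uncalled after siEGFR. ASNS (-1.75), CHAC1 (-1.25), SLC7A11 (-0.93) and PSAT1 (-1.59) fell after both siRNAs, as did 16 of the 17 genes on the ATF4 list, with a median of -0.62 after siEGFR (also 16 genes and -0.6 without the 6 arrays). EGR1 fell by 1.74 after siEGFR, 0.72 further than after scramble siRNA (limma adjusted p = 1.3e-10). Among the rises, HAS3 had a change of -0.1 after siEGFR that did not pass and NETO2 fell by 0.52. MMP10 rose by 1.54. Of 28 interferon-stimulated genes 11 rose and none fell after siEGFR, where 11.2% of all genes rose.

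In the single lines the counts were smaller. After scramble siRNA 331 genes were higher in HaCaT-Mock (1.67%) and 1007 lower, 410 were higher in HaCaT-EGFR (2.07%) and 663 lower, 806 were higher in HaCaT-HRAS (4.08%) and 1119 lower, and 855 were higher in HaCaT-PIK3CA (4.32%) and 786 lower. These counts moved with single arrays and with the fit. The 1338 calls in HaCaT-Mock became 411 without PBS array 1 and the 1073 in HaCaT-EGFR became 120 without PBS array 2, and other fits gave 1 to 3943 calls in the Mock line, 0 to 3839 in the EGFR line, 0 to 4579 in the HRAS line and 32 to 3998 in the PIK3CA line. ASNS and ITGB8 were among the 4 largest falls named in each line. HAS3 was among the 4 largest rises in HaCaT-Mock, HaCaT-HRAS and HaCaT-PIK3CA, and in HaCaT-EGFR these were MMP10 (2.63), KRT13 (1.86), LYNX1 (1.79) and AQP3 (1.66).

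The lines differed in few genes. An F test of the scramble effect between the 4 lines called 17 genes (0.086%), and 75 without the 6 arrays (0.379%). Of these, 10 are described here, and the fitted change was highest in HaCaT-EGFR in all 10. KRT1, a keratin of the first suprabasal layer, read 7.36, 7.37 and 8.08 in HaCaT-EGFR scramble arrays and 5.21 and 5.14 in the PBS arrays, a change of 2.41. In HaCaT-HRAS it read 4.91, 5.0 and 4.62 after scramble siRNA and 5.0, 5.01 and 5.07 in PBS arrays. The HaCaT-EGFR groups stood far apart and the HaCaT-HRAS groups overlapped (limma F test, adjusted p = 0.00072). MMP10 read 7.72, 7.6 and 7.84 in HaCaT-EGFR scramble arrays and 5.12 and 5.36 in PBS arrays, while in HaCaT-HRAS it read 5.7, 5.54 and 5.35 after scramble siRNA and 5.31, 5.69 and 4.76 in PBS arrays. Its change was 2.63 in HaCaT-EGFR, 1.56 in HaCaT-Mock, 0.63 in HaCaT-PIK3CA and 0.28 in HaCaT-HRAS, and the last 2 did not pass (F test adjusted p = 0.0047).

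**Figure D5:**
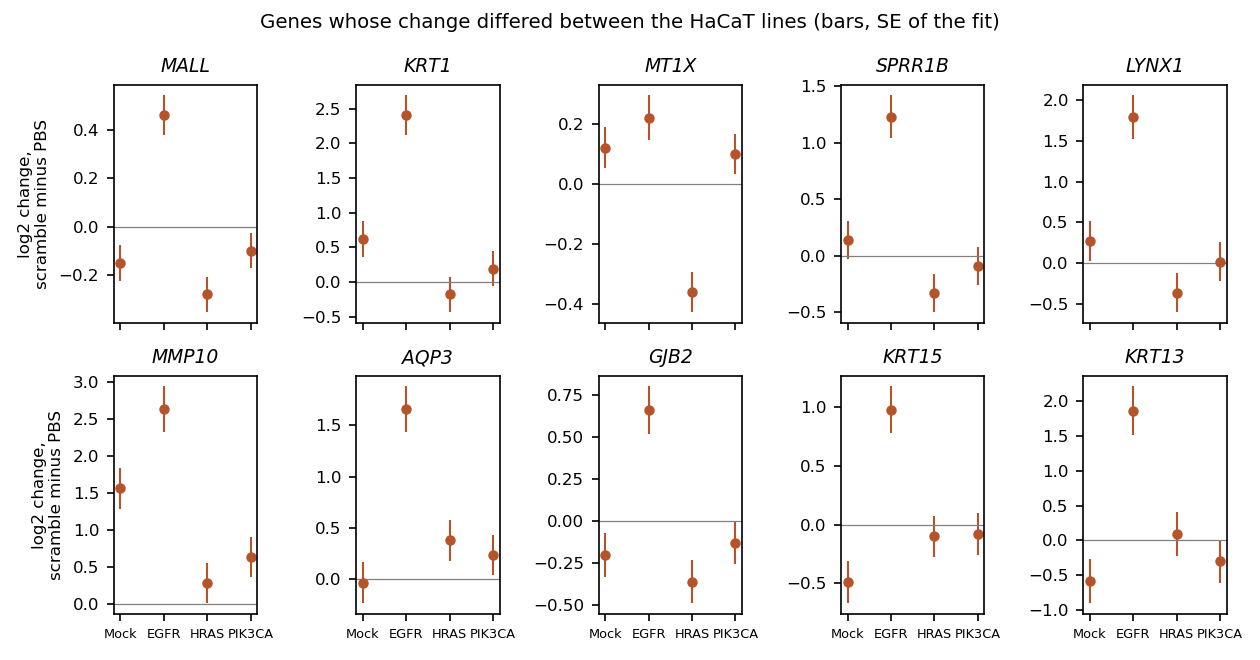
The vertical axes give the log2 change, scramble siRNA minus PBS, with its SE from the fit, of 10 genes in each of the 4 HaCaT lines. HaCaT-EGFR has the highest value in all 10, from 0.22 for MT1X to 2.63 for MMP10.

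The other genes described had varied roles. SPRR1B, a cornified envelope precursor, rose by 1.23 in HaCaT-EGFR and had changes of 0.14, -0.33 and -0.09 in HaCaT-Mock, HaCaT-HRAS and HaCaT-PIK3CA. It read 8.27, 8.45 and 8.87 in HaCaT-EGFR scramble arrays and 7.29 and 7.31 in PBS arrays. KRT13, a suprabasal keratin of mucosa (1.86), the glycerol channel AQP3 (1.66), KRT15, a basal keratin (0.98), the gap junction protein GJB2 (0.66) and MALL, a raft protein of the MAL family (0.46), rose in HaCaT-EGFR. In the other lines KRT13, AQP3, KRT15 and GJB2 did not pass, and MALL fell in HaCaT-HRAS (-0.28, limma adjusted p = 0.0071). The metallothionein MT1X fell in HaCaT-HRAS (-0.36), where it read 11.74, 11.74 and 11.77 in scramble arrays and 12.18, 12.06 and 12.09 in PBS arrays, and did not pass elsewhere. HaCaT-EGFR had only 2 PBS arrays, both in batch J, and each of its changes rests on them.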

How the data were processed

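The deposited log2 values of 54675 probe sets were used. According to the methods, the authors normalized the arrays with frozen robust multi-array analysis and corrected batch effects by a surrogate-variable method. The submitters' notes name affy. It is not stated in these sources whether the batch correction is part of the deposited log2 values. GEO's platform annotation gave gene names, and the 41097 probe sets with 1 gene symbol were kept. Each of 19775 genes was read from its brightest probe set on average, and probe sets of 1 gene can disagree.

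A linear model was fitted with limma 3.58.1 in R 4.3.3 to all 89 HaCaT arrays, with terms for each group of line and condition and for batch (47 residual degrees of freedom). Contrasts were tested by empirical Bayes, with Benjamini-Hochberg adjustment over all genes, two-sided, and called at an adjusted p under 0.05. The scripts were tested on simulated data. No sequencing depth applies to arrays, and their number limits the precision.

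The members and the 39 gene lists were chosen with earlier results of these data known. Genes were named by a rule. It took the 12 largest rises and 12 largest falls among called genes of at least median level that moved 1 way in the 4 lines, the 4 largest each way in a line or between both kinds of scramble array, the 8 with the lowest F test p, in each list the 3 members of lowest p, EGFR and HRAS. Other genes named were chosen after their values were seen. PIK3CA had no probe set with 1 symbol. Alternatives were fits on fewer arrays, without batch, with array weights, another probe set rule, a filter on low values, quantile normalization, a robust variance prior, a replicate block and leaving out single arrays. Replicate numbers were not taken as pairs, since none of the labels ties them to a shared culture.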

Additional observations from a re-analysis of the deposited data

Results flagged for a closer look

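The scramble effect differed between the 4 lines in 10 named genes by the limma F test of that difference. The adjusted p was 0.00072 for KRT1 and for MALL, 0.0025 for MT1X and for SPRR1B, 0.0042 for LYNX1, 0.0047 for MMP10, 0.0078 for AQP3, 0.021 for GJB2 and for KRT15, and 0.025 for KRT13. In each gene the change was highest in HaCaT-EGFR, from 0.22 for MT1X to 2.63 for MMP10. In MT1X only the fall in HaCaT-HRAS (-0.36) passed by itself. Leaving out the 6 arrays that stood apart, the adjusted p was 2.5e-06 for KRT1, 6.3e-08 for MALL and 7e-05 for MMP10. All HaCaT-EGFR values rest on 2 PBS arrays, and leaving out either of them lowered the number of genes that differed between lines to 3. The part of these arrays in the result was not tested further.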

How the results depend on the processing

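The mean over the 4 lines kept its count within 1.5 times of 5360 in 12 of 13 alternatives, and the exception was the fit without batch, with 2926. The named genes had 539 values of the main comparison, each of 1 gene under 1 alternative. In these no direction reversed and 2 calls were lost, ENTPD7 and SLC3A2 without batch. In the genes that differed between lines 31 of 112 such values lost the call. The counts of single lines, of line differences and of the other comparisons depended on the fit, and the cause was not tested unless given here.

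Without batch 1 gene was called in HaCaT-Mock, 92 genes in HaCaT-EGFR, 323 genes in HaCaT-HRAS, 165 genes in HaCaT-PIK3CA, 3 between lines, 709 for scramble with PBS against PBS, 1594 for scramble against scramble with PBS and 6142 for scramble with inhibitor against inhibitor. With only the arrays of the groups compared, which are fewer, they were 122 in HaCaT-Mock, 557 calls in HaCaT-EGFR, 619 in HaCaT-PIK3CA, 55 between lines and 2 for scramble with inhibitor. In batch J alone they were 122 in HaCaT-Mock, 557 again in HaCaT-EGFR, 420 in HaCaT-HRAS, 32 in HaCaT-PIK3CA, 3 between lines, 2141 for scramble with PBS against PBS and 1796 for scramble against scramble with PBS. Array weights gave 3943 calls in HaCaT-Mock, 3839 calls in HaCaT-EGFR, 4579 calls in HaCaT-HRAS, 3998 calls in HaCaT-PIK3CA and 223 between lines.

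The following alternatives were chosen after seeing the data. Without HaCaT-HRAS gefitinib arrays 1 and 2, which had low weights, the counts were 2055 in HaCaT-Mock, 1642 in HaCaT-EGFR, 1783 for scramble with PBS against PBS and 1800 for scramble with inhibitor. Without the 6 arrays that stood apart they were 1789 in HaCaT-EGFR, 75 between lines, 3250 for scramble with PBS against PBS, 484 for scramble against scramble with PBS and 3903 for scramble with inhibitor. Without batch E they were 1971 for scramble with PBS against PBS and 2421 for scramble against scramble with PBS.

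Replicate numbers share only a number. Deviations of same-numbered arrays correlated at 0.0269, 0.013, -0.0252 and -0.209 in the 4 lines, and with a replicate block in batch J the counts were 86 in HaCaT-Mock, 36 in HaCaT-PIK3CA, 0 in both HaCaT-EGFR and HaCaT-HRAS and 0 between lines (limma, with 4394, 4219 and 1120 genes in these 3 at an unadjusted p under 0.05).

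Leaving out 1 array at a time gave 4726 to 5332 for the mean of the lines, 411 (without PBS array 1) to 1214 in HaCaT-Mock, and 120 (without PBS array 2) to 674 in HaCaT-EGFR, 1182 to 1403 in HaCaT-HRAS, 941 to 1145 in HaCaT-PIK3CA and 3 to 21 between lines. It gave 547 (without the first HaCaT-PIK3CA array) to 1465 for scramble with PBS against PBS, 452 (without the HaCaT-Mock scramble with PBS array) to 3976 for scramble against scramble with PBS, and 400 (without the HaCaT-Mock scramble with afatinib array) to 1965 (without the HaCaT-PIK3CA afatinib array that stood apart) for scramble with inhibitor. Small fold changes of dim genes are compressed on arrays, so a change that missed the test does not show that a gene kept its level.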
